A study of Mus musculus with 6 samples.

Results

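The 7 genes described here encode CD69 and the core of the sphingosine-1-phosphate (S1P) system: Cd69, the S1P receptor genes S1pr1 and S1pr2, the sphingosine kinase genes Sphk1 and Sphk2, the S1P lyase gene Sgpl1 and the S1P phosphatase gene Sgpp1. They were chosen by name from the 54532 genes of the expression table, with the difference between genotypes already known, and all 7 had a mean of at least 1 FPKM (fragments per kilobase of gene model, scaled to library size, and so a level per length) over the libraries. Their WT against PGRN KO values are therefore given as a description, and no p-value of the 7 is given as support.

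Polyadenylated RNA was sequenced from mouse macrophages of strain C57BL/6J, in 3 libraries of wild type (WT) cells and 3 libraries of cells lacking progranulin (PGRN KO), a secreted growth factor-like protein whose gene is Grn. By their labels, the cells came from the peritoneal cavity, were plated at 2000000 per well, and had all met live Candida albicans for 6 hours, at a ratio of 1 fungus to 1 macrophage, so that the data hold no unchallenged baseline. The text of the study instead describes bone marrow-derived macrophages for these libraries and gives another ratio of fungus to cells, and the labels were followed here. Per the methods, PGRN KO mice came from the Jackson Laboratory and WT mice from Chongqing Medical University, so that genotype and supplier cannot be told apart, and neither the age of the animals nor whether each library came from its own animal is given in the sources used here. P-values thus measure only the spread between these samples.

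S1P is a signalling lipid made when sphingosine kinases phosphorylate sphingosine, which itself is released from ceramide. It is removed irreversibly by the lyase or returned to sphingosine by phosphatases, and it acts on a family of G protein-coupled receptors that guide the migration of leukocytes and the barrier of vessels. CD69 is a C-type lectin-like membrane protein, known as an early activation marker of lymphocytes and induced by type I interferon, which binds S1P receptor 1 in the same membrane and causes its loss from the cell surface, so that activated lymphocytes stay in lymphoid tissue.

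Grn was at 323 to 337 FPKM in WT libraries and at 0 to 0.0167 FPKM in PGRN KO libraries, or 0 to 1 fragments. The libraries held 15996786 to 17551619 counted fragments. PGRN KO replicate 6 stood apart from the other libraries. Its deviation from the mean of each gene followed gene length (Spearman correlation -0.47 across 8882 genes, which are not independent replicates, against 0.15 to 0.24 in the other libraries), so values without it are given beside the differences of Cd69 and the enzymes. Of the 9 macrophage markers, all were expressed, with Lyz2 at 5657 to 8135 FPKM and Adgre1, which encodes F4/80, at 162 to 195 FPKM. The limma test (adjusted p under 0.05) called Mertk of this list higher and Csf1r lower in PGRN KO. Over all tested genes it called 24.2%. Gata6, the transcription factor of resident peritoneal macrophages, was at 3.78 to 5.07 FPKM, whereas Timd4, another marker of these cells, did not exceed 0.204 FPKM. Of the 7 markers listed for these cells, 3 were tested, Gata6, Prg4 and Icam2, and 1, Icam2, was significantly higher in PGRN KO. Prg4 had the highest level of the list, while Alox15, Cxcl13 and Selp were, like Timd4, too low to be tested.

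Cd69 was the member with the largest difference between genotypes. Cd69 (ENSMUSG00000030156, GRCm38 chromosome 6, 129267325 to 129275436, minus strand) was at 3.89, 4.18 and 3.01 FPKM in WT replicates 1, 2 and 3 and at 19.3, 13.2 and 21.6 FPKM in replicates 4, 5 and 6 of PGRN KO. Every PGRN KO library lay above every WT library. The WT mean was 3.69 ± 0.606 FPKM and the PGRN KO mean 18.03 ± 4.35 FPKM (SD, n = 3 each), a level 4.88-fold higher, with a log2 fold change of 2.00 ± 0.19 (SE) on the log2(FPKM + 1) scale. By rank this was number 2 from the highest log2 fold change among the 8882 genes tested. The value rested on 1180 fragments in WT and 6231 in PGRN KO, and it ranged from 1.86 to 2.27 over 16 other ways of processing, the lowest being that without PGRN KO replicate 6.

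CD69 is best known from lymphocytes, and markers of lymphocytes differed between genotypes as well. In these bulk libraries a change in the number of cells of a type cannot be told apart from a change in RNA per cell. Of 8 B cell markers, 4 were expressed highly enough to be tested, and all 4 were significantly higher in PGRN KO. Over all tested genes, 10.4% were significantly higher and 13.8% significantly lower, which also applies to the marker counts below. The B cell list summed to between 9.55 and 11.1 FPKM over WT libraries and to between 26.5 and 31.7 FPKM over PGRN KO libraries. Ighm, the heavy chain of IgM, rose from 3.48 ± 0.549 to 13.4 ± 1.57 FPKM (limma adjusted p 0.00119). Cd79a, a chain of the B cell receptor, rose from 0.960 ± 0.341 to 3.78 ± 0.668 FPKM (limma adjusted p 0.00327). None of the 8 markers was at 0 in all libraries. Their part in the Cd69 result was not tested.

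T cell markers differed less. Their 11 genes summed to 6.39 to 7.51 FPKM in WT and to 7.58 to 13.6 FPKM in PGRN KO, without overlap. None of the 3 tested, Trac, Trbc2 and Lck, passed the threshold. The others were too low to be tested. Of these, Cd3d, Cd3e, Cd4 and Cd8a were higher in every PGRN KO library, while Cd3g, Trbc1, Cd8b1 and Cd5 overlapped between groups. Over all tested genes, 21.2% lay higher in every PGRN KO library and 27.6% lower, which also applies to the lists below. Cd3d, Cd3e, Cd4 and Cd8a rested on 0 to 39 fragments per library. Cd3e was at up to 0.166 FPKM in WT and from 0.170 FPKM in PGRN KO. NK cell markers summed to 2.54 to 2.73 FPKM in WT and to 3.69 to 6.07 FPKM in PGRN KO, with Gzmb the 1 gene tested and significantly higher. Ncr1, the defining NK cell receptor, did not exceed 0.0878 FPKM in any library. Mast cell markers summed to 9.24 to 12.7 FPKM and 17.9 to 23.8 FPKM, 2 of 3 tested being significantly higher, with Ms4a2 at 0 in all libraries. Of the other untested genes, Cpa3, Mcpt4 and Fcer1a were higher in every PGRN KO library, while Kit overlapped with a lower PGRN KO mean. Dendritic cell markers summed to 52.0 to 60.8 FPKM in WT and to 35.3 to 39.03 FPKM in PGRN KO, where both tested genes, Ccr7 and Itgax, were significantly lower. Of the untested ones, Flt3 and Xcr1 were lower in every PGRN KO library, while Zbtb46 overlapped with a higher PGRN KO mean. Siglech held at most 1 fragment per library. Neutrophil markers did not separate the groups (19.98 to 20.95 and 17.04 to 21.4 FPKM), and Ly6g, Elane and Cxcr2 were at 0 in all libraries. Fibroblast and mesothelium markers summed to 1.118 to 1.187 FPKM over WT and 2.05 to 3.72 FPKM over PGRN KO, and endothelial markers to 1.46 to 2.11 and 2.31 to 3.19 FPKM, both lists higher in every PGRN KO library, with the 1 gene of them that was tested, Cdh5, not past the threshold (limma adjusted p 0.0539). Lists for eosinophils and platelets summed to at most 0.942 FPKM in any library and overlapped between groups, with Epx and Prg2 of the eosinophil list and Emcn of the endothelial list at 0 throughout. Ccr7, Itgax, Mmp8 and Hdc, which carry much of the dendritic, neutrophil and mast cell sums, can also be transcribed by activated macrophages. The part of these cells in the Cd69 result was not tested.

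The genes whose pattern over the 6 libraries was closest to that of Cd69 were named by their root mean square distance from it, after log2(FPKM + 1) values were centred on the mean of each gene, among 7912 other tested genes. They were Mx1 (distance 0.155), an interferon-induced GTPase, Syngr1 (0.184), a synaptic vesicle protein gene, Ch25h (0.192), the interferon-inducible cholesterol 25-hydroxylase, Rnf225 (0.195), a RING finger gene, and Il15 (0.198), a cytokine of NK cells and memory T cells. In 4 of them, as in Cd69, PGRN KO replicate 5 was the lowest PGRN KO library and WT replicate 3 the lowest WT library, as Mx1 shows with 58.4 and 14.96 FPKM. The exception was Ch25h, which was lowest in WT replicate 1, at 8.15 FPKM. Its mean was 9.46 ± 1.73 FPKM for WT and 33.6 ± 6.58 FPKM for PGRN KO. Since the distance is led by the difference between genotypes that chose Cd69, it describes likeness in these libraries and was not tested.

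**Figure D1:**
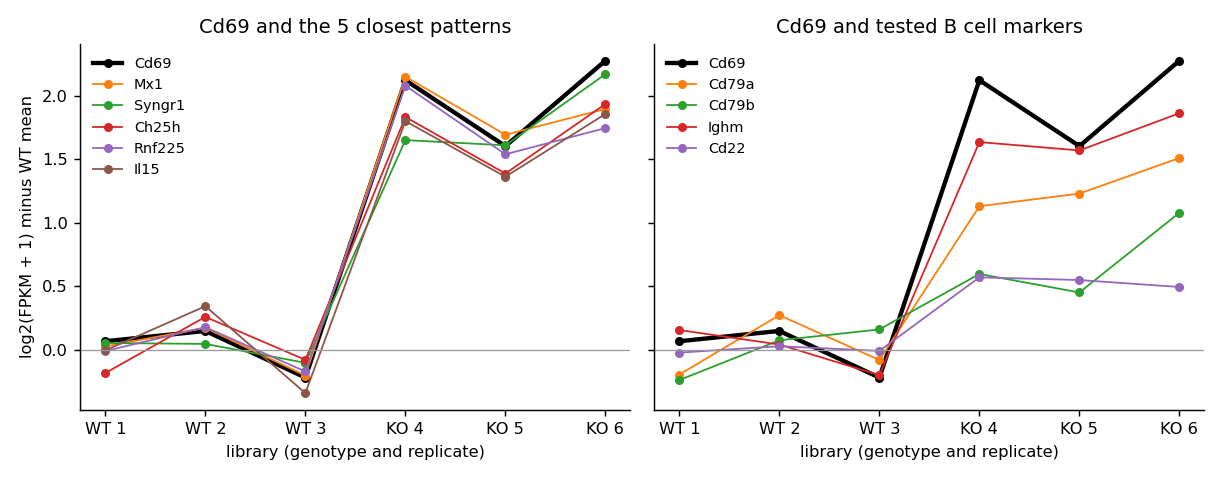
Log2(FPKM + 1) minus the WT mean (y axis) for each library (x axis), for Cd69 (black) with the 5 genes of closest pattern on the left and with the 4 tested B cell markers on the right; lines only join the points of a gene. Cd69 and its 5 closest genes lie near 0 in WT and apart from it in all PGRN KO libraries, and among the B cell markers Ighm comes nearest to Cd69.

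The receptor transcripts of the system were low in both groups. S1pr1 (ENSMUSG00000045092, chromosome 3, 115710433 to 115715072), whose product CD69 removes from the surface, was at 1.28, 1.58 and 1.29 FPKM in WT and at 2.05, 1.66 and 1.58 FPKM in replicates 4, 5 and 6 of PGRN KO. The groups were separate by a hair, since the lowest PGRN KO library was at 1.577 FPKM and the highest WT library at 1.576 FPKM. The means were 1.38 ± 0.169 and 1.76 ± 0.250 FPKM (SD, n = 3 each), and the log2 fold change was 0.21 ± 0.11 (SE). These values came from 65 to 71 fragments per WT library and 83 to 108 per PGRN KO library, and such small counts limit the precision of each value.

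S1pr2 (ENSMUSG00000043895, chromosome 9, 20962361 to 20976781), a receptor that restrains migration, was at 0.945, 0.984 and 1.11 FPKM in WT and at 1.43, 1.27 and 1.28 FPKM in PGRN KO. All PGRN KO libraries were above all WT libraries. The means were 1.01 ± 0.0838 and 1.33 ± 0.0859 FPKM, 1.31-fold apart, with a log2 fold change of 0.21 ± 0.09 (SE). For levels this low the added 1 shrinks the difference, and with a pseudocount of 0.01 the log2 fold change was 0.35 for S1pr1 and 0.39 for S1pr2.

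The receptor with the highest level was none of the members. S1pr3, which couples to several G protein families, was at 10.4, 9.73 and 11.5 FPKM in WT and at 6.99, 7.30 and 6.25 FPKM in PGRN KO, with no overlap. From WT to PGRN KO it fell from 10.6 ± 0.898 to 6.85 ± 0.541 FPKM (limma log2 fold change -0.56 ± 0.10 SE, adjusted p 0.0102). The call was not kept without WT replicate 1 or 3 (adjusted p 0.0543 and 0.0504) or after rescaling each library to the same FPKM sum (the TPM scale, 0.0697). S1pr4 did not exceed 0.509 FPKM and S1pr5 did not exceed 0.0717 FPKM in any library, and neither was tested.

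Over the 5 receptor genes, the summed level was 13.1, 12.5 and 14.3 FPKM in WT and 10.8, 10.6 and 9.64 FPKM in PGRN KO. The share of S1pr3 in that sum was 79.2% ± 1.55 for WT and 66.2% ± 2.25 for PGRN KO (SD, n = 3 per genotype). The share of S1pr1 was 10.4% ± 1.87 and 17.02% ± 1.78, and that of S1pr2 was 7.59% ± 0.352 and 12.9% ± 0.759. In each of the 3 shares the groups were separate. The shares are parts of the same sum and not independent, since a lower share of S1pr3 means a higher share of the other receptors together. S1pr3 nevertheless remained the receptor with the highest level in every library.

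Of the enzymes, Sgpl1 differed most between genotypes. Sgpl1 (ENSMUSG00000020097, chromosome 10, 61098642 to 61147703), the lyase that cleaves S1P irreversibly, was at 165, 168 and 162 FPKM in WT and at 110.1, 111 and 82.0 FPKM in replicates 4, 5 and 6 of PGRN KO. The WT libraries lay within a narrow range, and all PGRN KO libraries lay below them. The means were 165 ± 3.17 and 101 ± 16.6 FPKM, a level 1.63-fold lower in PGRN KO, with a log2 fold change of -0.72 ± 0.13 (SE). PGRN KO replicate 6 was the lowest library, and without it the log2 fold change was -0.57, the value nearest to 0 of all 16 alternatives, whose other end was -0.79. After correction of each library for gene length it was -0.64.

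Sphk1 (ENSMUSG00000061878, chromosome 11, 116530925 to 116536674), the inducible and mainly cytosolic kinase, was at 65.4, 67.8 and 66.6 FPKM in WT and at 56.03, 52.2 and 77.03 FPKM in PGRN KO. PGRN KO replicates 4 and 5 were below all WT libraries and replicate 6 was above all of them, so that the groups overlapped. The log2 fold change was -0.13 ± 0.15 (SE), and it was -0.29 without PGRN KO replicate 6. The WT values varied by 1.78% (coefficient of variation) and the PGRN KO values by 21.6%. A share of 4.02% of its exonic bases overlaps Gm29292 on the opposite strand.

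Sphk2 (ENSMUSG00000057342, chromosome 7, 45709467 to 45718002), the kinase found largely in the nucleus and mitochondria, was at 11.8, 10.4 and 12.1 FPKM in WT and at 10.9, 10.9 and 14.3 FPKM in PGRN KO. The groups overlapped, and the log2 fold change of 0.06 ± 0.13 (SE) turned to -0.06 both without PGRN KO replicate 6 and with sample quality weights, which give that library little weight. A share of 13.0% of the Sphk2 exonic bases overlaps Dbp and 8.97% overlaps Rpl18, both on the opposite strand, and since the sources used here do not say whether counting used strand, the values of Sphk2 are uncertain.

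Sgpp1 (ENSMUSG00000021054, chromosome 12, 75714249 to 75735729), the phosphatase of the endoplasmic reticulum that returns S1P to sphingosine, was at 2.59, 2.63 and 2.17 FPKM in WT and at 3.05, 3.16 and 2.46 FPKM in PGRN KO. The groups overlapped through PGRN KO replicate 6. The means were 2.46 ± 0.258 and 2.89 ± 0.377 FPKM, with a log2 fold change of 0.16 ± 0.11 (SE) and of 0.25 without that replicate.

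**Figure D2:**
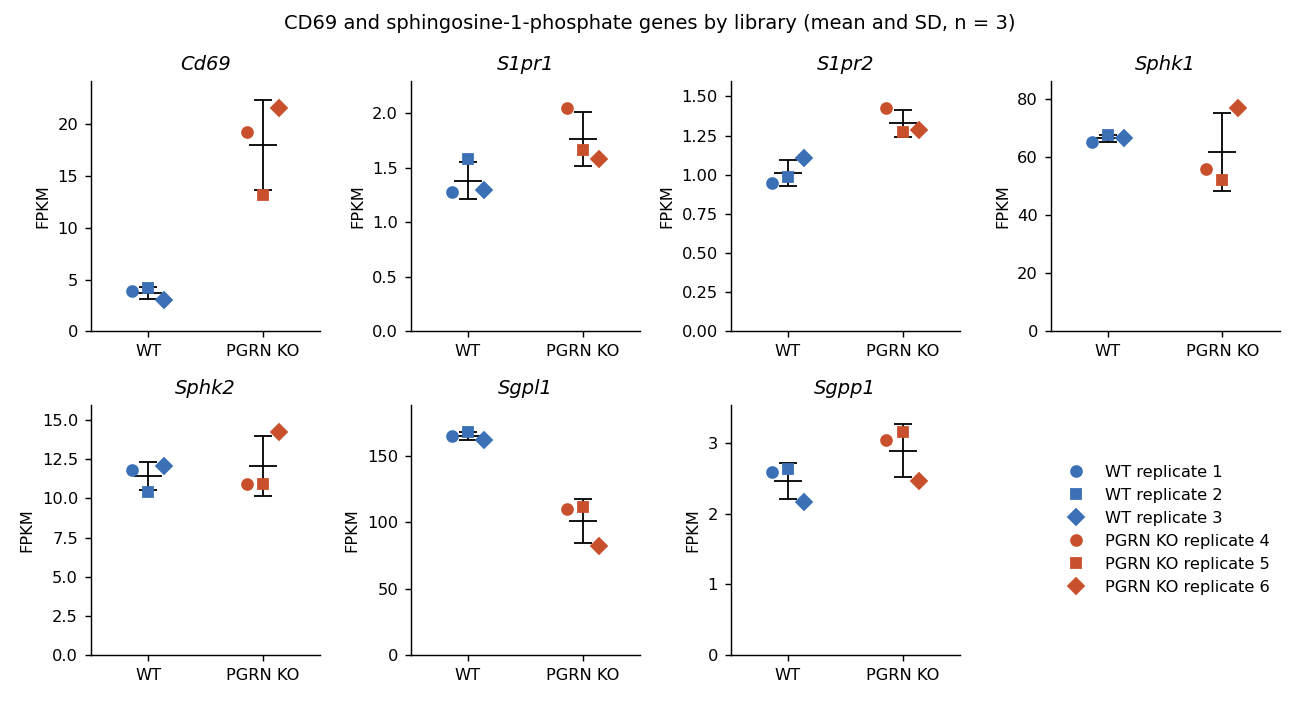
FPKM (y axis, from 0, own scale in each panel) of the 7 genes in 3 WT (blue) and 3 PGRN KO (orange) libraries; a point is a library, and the black lines give the mean and SD. Cd69 is apart by genotype with the widest gap relative to its level, Sgpl1 is lower in all PGRN KO libraries, and PGRN KO replicate 6 (orange diamond) is the highest library for Sphk1 and Sphk2 and the lowest for Sgpl1.

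The promoter sequences of the enzymes and receptors are given as context for genes whose levels differed in direction. RefSeq (GRCm38.p6) gives a promoter sequence for 5 of the 7 genes, with 5 starts for Sphk1, 2 for Sphk2 and 1 each for S1pr2, Sgpl1 and Sgpp1. Cd69 and S1pr1 were not matched. The 250 bases before the start are shown for the 3 genes with a single start, as the lyase, a receptor and the phosphatase, 5′ to 3′ on the strand of the gene. The build coordinates are chr10:61147685-61147934 for Sgpl1, chr9:20976794-20977043 for S1pr2 and chr12:75735730-75735979 for Sgpp1, all on the minus strand. Capitals mark the motif matches.
Sgpl1: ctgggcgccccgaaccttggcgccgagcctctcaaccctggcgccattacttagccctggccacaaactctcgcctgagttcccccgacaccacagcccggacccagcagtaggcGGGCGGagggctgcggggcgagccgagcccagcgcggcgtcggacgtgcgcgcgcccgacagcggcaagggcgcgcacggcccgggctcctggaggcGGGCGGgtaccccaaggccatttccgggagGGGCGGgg
S1pr2: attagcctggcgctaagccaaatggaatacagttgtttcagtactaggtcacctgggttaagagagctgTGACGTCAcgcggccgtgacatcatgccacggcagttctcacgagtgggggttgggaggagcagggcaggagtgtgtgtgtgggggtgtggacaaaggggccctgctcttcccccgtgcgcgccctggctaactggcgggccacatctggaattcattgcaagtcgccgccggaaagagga
Sgpp1: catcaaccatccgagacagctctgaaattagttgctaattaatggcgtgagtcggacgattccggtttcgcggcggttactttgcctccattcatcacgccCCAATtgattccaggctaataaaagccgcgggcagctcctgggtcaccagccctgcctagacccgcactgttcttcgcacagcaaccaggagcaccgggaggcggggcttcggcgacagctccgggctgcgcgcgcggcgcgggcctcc

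Both strands of these windows were searched for 6 motifs. The GC box GGGCGG, the core bound by SP1, was present at 135, 38 and 8 bases before the start of Sgpl1, at 83 bases before 1 start of Sphk2 and at 152 and 92 bases before the other, and occurs in 32.7% of all 32851 promoters of this length. S1pr2 held a full cAMP response element, TGACGTCA, starting 181 bases before its start, which occurs in 1.55% of all promoters. Sgpp1 held a CCAAT box at 149 bases before its start, as 33.8% of promoters do, and so did 1 start of Sphk2, at 74 and 46 bases, and 2 overlapping windows of Sphk1, at 22 and 29 bases. The AP-1 motif TGANTCA was found before 2 of the Sphk1 starts (6.75% of promoters), at 50 and 124 bases, and the E-box CACGTG before 2 others (6.02%), at 95 and 102 bases. In each Sphk1 pair the windows overlap and hold the same copy. No matches of different motifs overlapped. The interferon response-like motif (GAAA, any 2 bases, GAAA), present in 2.98% of promoters, was not among the letters of any of the 10 windows. A match is a description of the sequence and not of binding.

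Set side by side, 4 of the 7 genes had groups that did not overlap, Cd69, S1pr1 and S1pr2 above and Sgpl1 below, where 48.8% of all tested genes had such groups (21.2% above and 27.6% below). With the limma test across all 8882 genes, 2 of the 7, Cd69 and Sgpl1, were past an adjusted p of 0.05, where 24.2% of all tested genes were. Since the genes were chosen with this comparison known, nothing is read from either count. The median log2 fold change was 0.16 over the 7 genes and -0.03 over all tested genes.

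The order of levels within a genotype was Sgpl1, Sphk1, Sphk2, Cd69, Sgpp1, S1pr1 and S1pr2 in WT, with every neighbouring pair apart over the 3 libraries. In PGRN KO, Cd69 stood above Sphk2 by its mean, but their ranges overlapped, the lowest Cd69 library being at 13.2 FPKM and the highest Sphk2 library at 14.3 FPKM. The other neighbours stayed in the same order and apart. Sgpl1 and Sphk1 came close in PGRN KO replicate 6, at 82.0 and 77.03 FPKM.

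The level of both kinases together, divided by that of the lyase, was 0.468, 0.464 and 0.485 in WT and 0.608, 0.567 and 1.11 in PGRN KO replicates 4, 5 and 6. All PGRN KO libraries were above all WT libraries, with means of 0.473 ± 0.0109 and 0.763 ± 0.305 (SD, n = 3 each). Replicate 6 was by far the highest of them. The ratio of Sphk1 to Sphk2 averaged 5.85 ± 0.556 over WT libraries and 5.10 ± 0.311 over PGRN KO libraries, again with no overlap. These are ratios of transcripts and say nothing of enzyme activity or of S1P itself, which was not measured here.

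**Figure D3:**
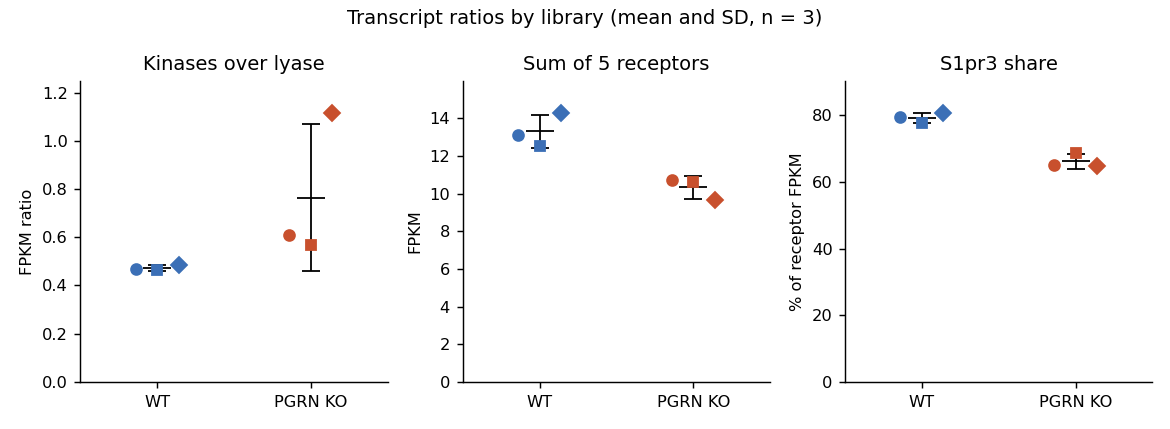
Transcript ratios by library (points; mean and SD in black) in WT and PGRN KO: the summed FPKM of Sphk1 and Sphk2 over that of Sgpl1, the summed FPKM of 5 S1P receptor genes, and the share of S1pr3 in that sum in percent, all with axes from 0. The first ratio reaches 1.11 in PGRN KO replicate 6, and the S1pr3 share lies at 64.8% to 68.8% in PGRN KO and at 77.6% to 80.6% in WT.

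Next, 121 other genes of the pathway were examined in 8 lists. Of these, 78 were expressed highly enough to be tested, and 26 passed the limma threshold (33.3%, against 24.2% of all tested genes), 6 higher and 20 lower in PGRN KO (10.4% and 13.8% of all tested genes). The median log2 fold change was -0.14, against -0.03 over all genes. The split depended on scaling, with 6 higher and 11 lower on the TPM scale and 7 higher and 13 lower when libraries were scaled by their summed fragments. Without WT replicates 1, 2 or 3 the count was 13, 15 or 14, and without PGRN KO replicate 6 it was 40. Of the 26 calls, 12 were kept in all alternatives that gave a value, namely Degs1, Glb1, Psap, Plcb3, Rgs1, Rgs2, Ccr7, Cxcr4, S100a8, Slc7a5, Clec12a and Clec4a2.

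Of 21 genes that supply ceramide and sphingosine, 12 were tested, none was significantly higher and 2 were significantly lower (median log2 fold change -0.01). Degs1, the desaturase that completes ceramide synthesis, fell from 78.3 ± 3.45 to 52.0 ± 1.31 FPKM (limma log2 fold change -0.58 ± 0.08 SE, adjusted p 0.00509). Ormdl3, a brake on serine palmitoyltransferase, fell from 25.8 ± 2.95 to 15.6 ± 2.75 FPKM (limma log2 fold change -0.70, adjusted p 0.0160), a call that was not kept without WT replicate 2 or 3 (0.0628 and 0.0661). Asah1, the acid ceramidase that yields sphingosine in lysosomes, was at 79.3 ± 2.49 and 80.4 ± 4.41 FPKM (limma adjusted p 0.894). The other 9 tested genes did not pass the threshold either.

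Genes that use ceramide or release it from larger lipids moved in both directions. Of 18, 15 were tested, 4 were significantly higher and 3 significantly lower (median 0.03). The 3 lower genes all consume ceramide: Ugcg, the glucosylceramide synthase, fell from 52.8 ± 2.50 to 33.5 ± 3.83 FPKM (limma adjusted p 0.00843), Sgms2, a sphingomyelin synthase, from 15.2 ± 0.256 to 9.54 ± 1.32 FPKM (0.00944), and Sgms1 from 4.29 ± 0.210 to 2.96 ± 0.243 FPKM (0.0190). Of the higher genes, 3 are named here, and they act in lysosomal breakdown. Psap, the precursor of the saposins that present sphingolipids to hydrolases and a known binding partner of progranulin, rose from 2143 ± 34.4 to 4180 ± 535 FPKM (limma adjusted p 0.00452). Glb1, the beta-galactosidase, rose from 31.4 ± 1.46 to 54.5 ± 7.43 FPKM (limma adjusted p 0.00577). Hexa, a hexosaminidase subunit, rose from 225 ± 5.01 to 337 ± 70.8 FPKM (limma adjusted p 0.0371). Smpdl3a, listed for its sphingomyelinase-like name and not for a shown release of ceramide, was at 137 ± 4.15 and 145 ± 2.98 FPKM (limma adjusted p 0.477).

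Not all of these calls were kept when the processing changed, although the directions were. Ugcg was not past the threshold without WT replicate 1 (adjusted p 0.0511, log2 fold change -0.63 against -0.64 with all libraries). Sgms2 was not past it without WT replicate 1 (0.0506) or on the TPM scale (0.0514). The Sgms1 call was lost on the TPM scale (0.102), with summed fragments as library size (0.0634), after length correction (0.0720, log2 fold change -0.25 against -0.42), and without WT replicate 1, 2 or 3 or PGRN KO replicate 4 (up to 0.0865). The Hexa call was lost with no filter (0.09999) and without any of the same 4 libraries (up to 0.133).

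Of 11 genes for S1P export, carriage and broad lipid phosphate phosphatases, 6 were tested. Plpp1 rose from 7.78 ± 0.200 to 10.6 ± 0.960 FPKM and Plpp2 fell from 15.2 ± 1.24 to 10.6 ± 1.43 FPKM (limma adjusted p 0.0234 and 0.0287), both phosphatases that can dephosphorylate S1P outside the cell. Neither call was kept without any 1 of the WT libraries or without PGRN KO replicate 4 or 5 (adjusted p of up to 0.108 and 0.123) or on the TPM scale (0.0796 and 0.0546). Plpp1 was also lost after length correction (0.119), and Plpp2 with no filter (0.0678) and with summed fragments as library size (0.0599). Abca1, a sterol transporter to which S1P export has also been assigned, was at 92.5 ± 2.38 FPKM in WT and at 73.5, 74.4 and 29.6 FPKM in replicates 4, 5 and 6 of PGRN KO (limma adjusted p 0.144, and 0.00405 without PGRN KO replicate 6). Its log2 fold change was -0.75 with all libraries and -0.32 without that replicate. Abca1 passed the threshold in only 2 of the 16 alternatives. The dedicated exporters were near 0, Spns2 at no more than 0.0517 FPKM and Mfsd2b at no more than 0.116 FPKM in any library.

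Among 26 genes of receptor signalling, 23 were tested, with 1 significantly higher and 5 significantly lower (median -0.15). Rgs1, a GTPase activator that curbs signalling of chemokine and S1P receptors, was at 119, 117 and 110.5 FPKM in WT and at 48.4, 53.3 and 45.7 FPKM in PGRN KO. It fell 2.35-fold (log2 fold change -1.22 ± 0.09 SE, limma adjusted p 0.00119). Rgs2, which acts mainly on Gq, fell from 10.02 ± 1.92 to 3.13 ± 0.546 FPKM (limma log2 fold change -1.41, adjusted p 0.00242). The alpha subunits Gnai3 and Gna13, through which S1P receptors act, fell from 102 ± 1.51 to 74.4 ± 6.93 FPKM and from 123 ± 2.01 to 86.2 ± 13.9 FPKM (limma adjusted p 0.0187 and 0.0318), and Gnaq fell from 7.12 ± 0.226 to 5.66 ± 0.186 FPKM (0.0416). The calls of Gnai3, Gna13 and Gnaq were lost on the TPM scale, with summed fragments as library size, under quantile normalization and without any 1 of the WT libraries, with adjusted p of up to 0.108, 0.129 and 0.251. Those of Gna13 and Gnaq were also lost with no filter, and that of Gnaq after length correction and without PGRN KO replicate 4 or 5. Plcb3, a phospholipase C, rose from 5.96 ± 0.134 to 10.6 ± 1.10 FPKM (limma adjusted p 0.00398). Rac2 was at 95.99 ± 2.05 and 86.5 ± 12.7 FPKM (limma adjusted p 0.356, and 0.00593 without PGRN KO replicate 6). It passed the threshold in only 2 of the 16 alternatives.

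Of 6 genes that control S1pr1 or act beside it in lymphocyte traffic, 5 were tested and 3 were significantly lower. Ccr7 and Cxcr4, receptors for homing and retention chemokines, fell from 28.9 ± 3.42 to 16.6 ± 1.93 FPKM and from 26.1 ± 3.47 to 14.7 ± 0.486 FPKM (limma adjusted p 0.00775 and 0.00502). Foxo1 fell from 1.76 ± 0.117 to 1.10 ± 0.187 FPKM (limma adjusted p 0.0345), a call lost without any 1 of the WT libraries and without PGRN KO replicate 4 (up to 0.137), with no filter (0.0987), on the TPM scale (0.125), with summed fragments as library size (0.0888) and after length correction (0.0837, log2 fold change -0.26 against -0.40). Klf2, the transcription factor that drives S1pr1 in lymphocytes, was at 4.50, 5.38 and 4.02 FPKM in WT and at 3.19, 1.83 and 3.88 FPKM in PGRN KO (limma adjusted p 0.104, and 0.0269 without PGRN KO replicate 6). It passed the threshold in only 3 of the 15 alternatives that gave a value. Stat3 was at 105 ± 3.56 and 91.9 ± 7.44 FPKM (limma adjusted p 0.180).

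The ligands and partners named for CD69 numbered 11, of which 8 were tested and 3 were significantly lower. S100a8, a subunit of the calprotectin complex, which binds CD69, fell from 49.98 ± 2.46 to 23.3 ± 2.20 FPKM (limma log2 fold change -1.07, adjusted p 0.00142). S100a9, the gene of the other subunit, was at 0 to 0.443 FPKM, or 0 to 4 fragments per library, and was not tested. Slc7a5, the amino acid transporter that associates with CD69, fell from 58.3 ± 3.22 to 36.5 ± 1.24 FPKM (limma adjusted p 0.00372), whereas its heavy chain Slc3a2 was at 374 ± 6.30 and 327 ± 54.4 FPKM (limma adjusted p 0.284, and 0.00376 without PGRN KO replicate 6). Slc3a2 passed the threshold in only 2 of the 16 alternatives. Stat5a, which acts with CD69 downstream of Jak3, fell from 22.8 ± 2.62 to 16.2 ± 2.01 FPKM (limma adjusted p 0.0353). The Stat5a call was lost without any 1 of the WT libraries and without PGRN KO replicate 5 (up to 0.127), with no filter (0.0815), on the TPM scale (0.0966), with summed fragments as library size (0.0645) and under quantile normalization (0.0507).

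The C-type lectin genes that share chromosome 6 with Cd69 were next counted. Of 25, only 8 were expressed highly enough to be tested, none was significantly higher and 2 were significantly lower (median log2 fold change -0.21). Clec4a2, an inhibitory lectin receptor, fell from 4.64 ± 0.202 to 1.06 ± 0.232 FPKM (limma log2 fold change -1.46 ± 0.11 SE, adjusted p 0.00119). Clec12a, another inhibitory receptor, fell from 6.94 ± 0.228 to 2.32 ± 0.169 FPKM (limma log2 fold change -1.26 ± 0.09 SE, adjusted p 0.00119). Clec4d was at 618 ± 19.5 and 535 ± 101 FPKM (limma adjusted p 0.293, and 0.00332 without PGRN KO replicate 6). It passed the threshold in only 3 of the 16 alternatives.

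**Figure D4:**
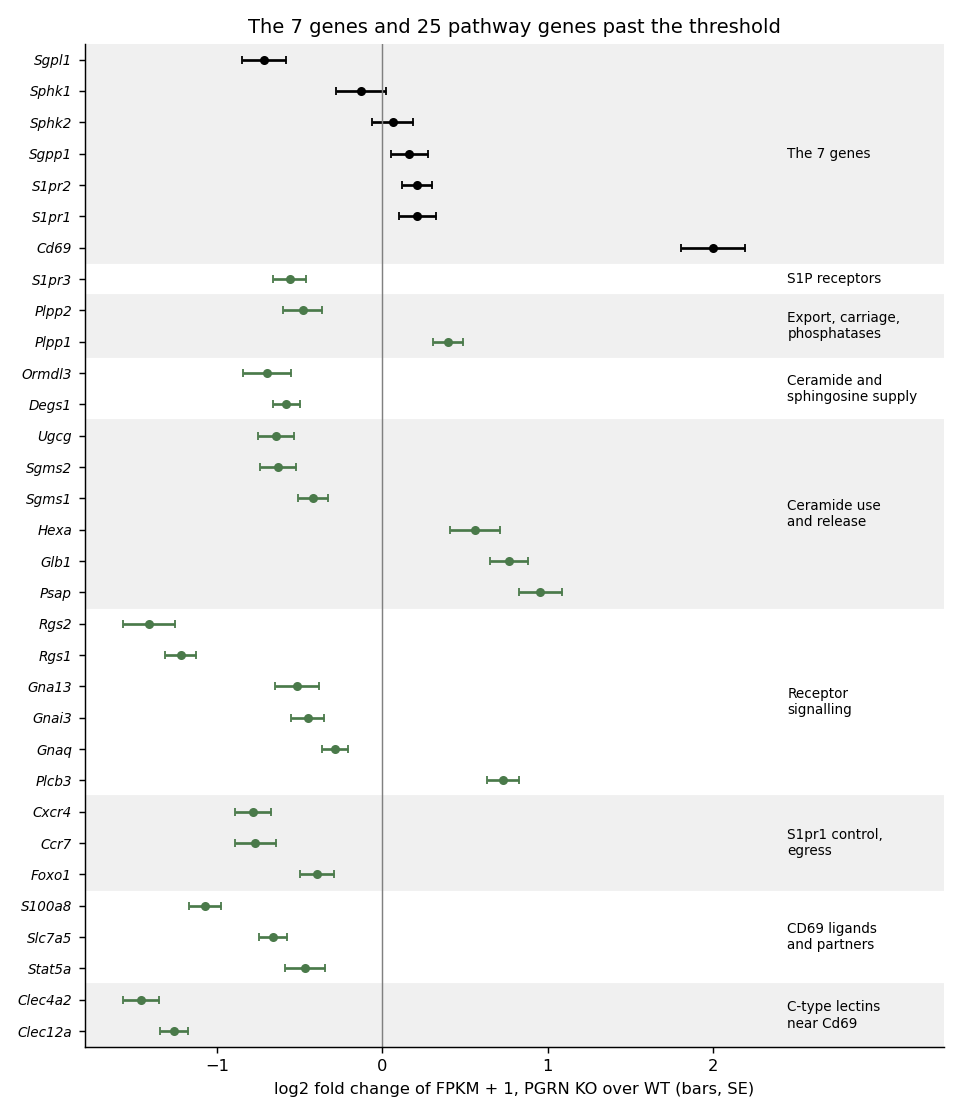
Log2 fold change of FPKM + 1 in PGRN KO over WT (x axis, with SE bars), grouped by list. Black marks the 7 genes, given as a description with no p-value as support. Green marks 25 of the 26 pathway genes past the limma threshold. Lower values prevail in most lists, with 20 genes left of 0, while Psap, Glb1, Hexa, Plcb3 and Plpp1 lie to the right.

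The genes closest in pattern to Sgpl1, by the same distance, were Rab3gap2 (0.0344), a subunit of a Rab3 GTPase-activating complex, Csf2rb2 (0.0363), the mouse receptor chain specific to IL-3, and Fam13b (0.0385). Each had its lowest value in PGRN KO replicate 6, as Sgpl1 did, with 99.6 FPKM for Csf2rb2 against 132 and 136 FPKM in replicates 4 and 5. As for Cd69, this is a description of likeness over 6 libraries.

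**Figure D5:**
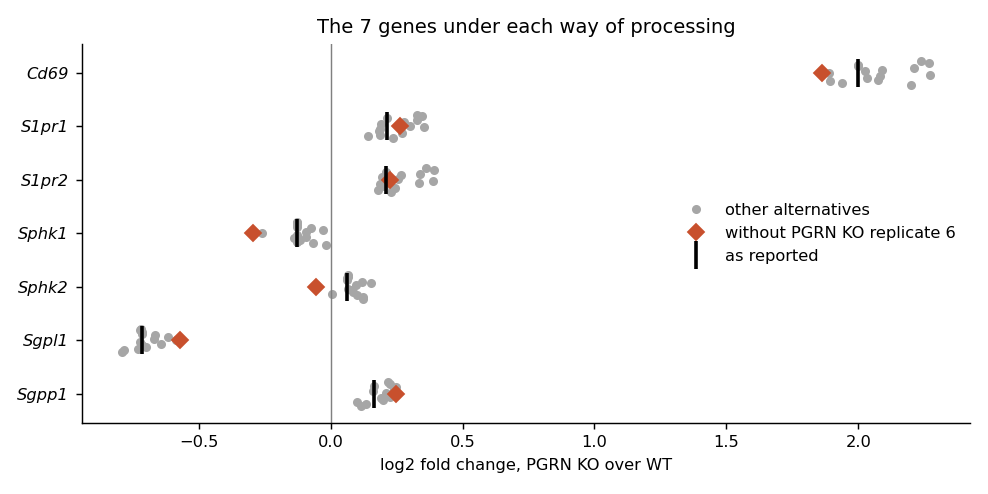
Log2 fold change in PGRN KO over WT (x axis) of the 7 genes as reported (black bar), without PGRN KO replicate 6 (orange diamond) and under the other alternatives (grey). Cd69 and Sgpl1 stay far from 0, whereas Sphk2 lies on either side of it.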

How the data were processed

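RNA from 3 WT and 3 PGRN KO macrophage libraries was measured by RNA-seq of polyadenylated transcripts. The authors deposited FPKM per gene and library. Low-quality and adaptor reads had been removed. The methods name HISAT and HTSeq, whereas the submitters' processing notes name HISAT2 2.0.5, featureCounts 1.5.0-p3, DESeq2 1.20.0 and GRCm38 (mm10); the annotation release and strand setting were not stated in the sources used. Of the table's genes, 99.77% were found in GENCODE M21, 98.26% of them with the same coordinates. FPKM times deposited gene length gave whole fragments in 100% of values above 0, within 0.001 of a step. The library size that had been divided by was 0.925 to 1.09 times the sum of fragments.

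Genes with a mean of at least 1 FPKM (8882) were tested on log2(FPKM + 1) with limma 3.58.1 in R 4.3.3 (empirical Bayes with a mean-variance trend, two-sided, no covariates), with Benjamini-Hochberg adjustment over all of them and a threshold of 0.05. The fit was tested on simulated data. Named were the 7 genes, Grn, pathway genes past the threshold, the most expressed pathway gene of each list not past it, and the closest patterns: 5 for Cd69 and 3 for other members with separate groups and a difference of 0.5 or more on the log2 scale in either direction, predicted gene models left out. S1pr4, S1pr5, Spns2, Mfsd2b, Klf2 and S100a9 were added for their role after their values were seen. Marker lists are named beside Cd69. Single values of 1 pathway gene and 1 marker gene are not reported here. The genes, lists and tests were chosen with earlier results of these data known. Alternatives were other pseudocounts, filters, scalings and weights, voom on recovered fragments, a loess correction for gene length, and leaving out each library. Fragment counts cover counting error at most and not the spread between samples, and they carry no molecular identifiers.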

Additional observations from a re-analysis of the deposited data

How the results depend on the processing

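No paired analysis was made, since the sources used here state no pairing. The labels only number the libraries in sequence, from 1 to 3 in WT and from 4 to 6 in PGRN KO. The differences of Cd69, S1pr1, S1pr2, Sgpl1, Sgpp1 and Sphk1 kept their direction under all 16 alternatives, where they gave a value, while that of Sphk2 changed sign in 2 (-0.06 with sample quality weights and -0.06 without PGRN KO replicate 6). With a mean FPKM of at least 5, S1pr1, S1pr2 and Sgpp1 gave no value.

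The log2 fold change of S1pr1, 0.21 as reported, was 0.33 and 0.35 with pseudocounts of 0.1 and 0.01, 0.33 on the TPM scale and 0.35 with voom. That of S1pr2, also 0.21, was 0.36 and 0.39 with these pseudocounts, 0.34 on the TPM scale, 0.39 with voom and 0.33 after correction for gene length. For the pseudocounts the cause is their size beside levels near 1 FPKM; for the TPM scale, voom and the length correction the cause was not tested. With each library left out, the log2 fold change was 1.86 to 2.20 for Cd69, 0.14 to 0.27 for S1pr1, 0.18 to 0.24 for S1pr2, -0.79 to -0.57 for Sgpl1, 0.10 to 0.25 for Sgpp1, -0.29 to -0.02 for Sphk1 and -0.06 to 0.12 for Sphk2.

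The 2151 genes past the threshold (921 higher, 1230 lower) became 1366 (603 and 763) with no filter. More genes were then adjusted together and the mean-variance trend was fitted to more genes, and the part of each was not tested. With a mean FPKM of at least 5, from fewer genes, 529 were higher. There were 593 lower genes on the TPM scale and 695 with the sum of fragments as library size. Sample quality weights gave 4225 (1757 and 2468), with a weight of 0.0899 for PGRN KO replicate 6. Leaving out 1 library, and so fitting fewer samples, gave 713 to 3668 (331 to 1438 higher, 382 to 2230 lower). The count was 713, 855 and 883 without WT replicates 1, 2 and 3, 1390 without PGRN KO replicate 4, and 3668 when replicate 6 was left out.

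The 26 pathway genes past the threshold (6 higher, 20 lower) became 17 (11 lower) on the TPM scale, 13 lower ones with the sum of fragments as library size, and 43 (34 lower) with sample quality weights. Leaving out 1 library gave 13 to 40 (3 to 8 higher, 10 to 32 lower). For other shifts named here the cause was not tested. Depth limits S1pr1 most, with 65 to 108 fragments per library.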
